A study of Mus musculus with 4 samples.

Results

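Mest, Copg2 and Klf14 are adjoining genes of an imprinted locus on mouse chromosome 6. They were taken by gene symbol from both deposited tables, and all 3 were found among the 26130 genes listed. The tables hold poly(A) RNA-seq values of mouse embryonic stem cells, the cultured pluripotent cells of the early embryo, in 4 libraries. The line E14 came from strain 129P2/OlaHsd and the line JB1 from JF1/B6, and each was sequenced once as wild type and once as Zfp57-/-, which lacks the zinc finger protein ZFP57. All 4 cultures grew without feeder cells on gelatin in medium with foetal calf serum and leukemia inhibitory factor. The labels name no clone and no replicate within a line and genotype, so every group was 1 library.

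Imprinted genes are transcribed mainly from the copy inherited from 1 parent, and the choice is kept by DNA methylation laid down in egg or sperm at a control region. At the Mest locus the control region is the Mest promoter, which is methylated on the maternal chromosome, so that the paternal copy is the active one. ZFP57 binds the methylated hexamer TGCCGC and recruits KAP1 and histone and DNA methyltransferases, which keep that methylation through the cleavage divisions and in stem cells. Mest encodes an enzyme-like protein of the alpha/beta-hydrolase fold found in the endoplasmic reticulum, and it is strongly expressed in embryonic mesoderm and growing fat tissue. Copg2 encodes the gamma-2 subunit of COPI, the coat of vesicles that carry cargo from the Golgi back to the endoplasmic reticulum, and in several mouse tissues it is transcribed mainly from the maternal copy. Klf14 encodes a Krüppel-like zinc finger transcription factor, has no introns and is expressed from the maternal copy. The tables sum both parental copies of each gene, so no value below separates maternal from paternal RNA.

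The 300 bases around each start site (250 before and 50 after) were read from RefSeq, build GRCm38.p6. Of the 3 genes, Mest and Copg2 matched that table. The windows of the main Mest start and of Copg2 are shown because they hold the letters that ZFP57 recognizes. Capitals mark the hexamer TGCCGC, which was searched on both strands and appears here as its reverse complement GCGGCA.
Mest promoter, chr6:30737800-30738099, plus strand: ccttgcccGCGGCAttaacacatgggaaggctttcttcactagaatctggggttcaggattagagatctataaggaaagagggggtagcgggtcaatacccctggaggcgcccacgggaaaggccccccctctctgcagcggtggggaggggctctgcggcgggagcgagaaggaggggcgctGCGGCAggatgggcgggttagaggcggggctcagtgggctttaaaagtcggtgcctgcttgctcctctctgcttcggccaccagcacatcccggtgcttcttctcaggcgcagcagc
Copg2 promoter, chr6:30896745-30897044, minus strand: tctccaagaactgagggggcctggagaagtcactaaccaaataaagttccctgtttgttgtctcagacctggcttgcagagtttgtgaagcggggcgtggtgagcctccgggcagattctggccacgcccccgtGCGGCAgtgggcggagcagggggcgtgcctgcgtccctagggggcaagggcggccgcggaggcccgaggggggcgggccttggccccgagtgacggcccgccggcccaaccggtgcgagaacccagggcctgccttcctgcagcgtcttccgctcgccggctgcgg

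The Mest window held the hexamer 2 times, beginning 242 and 67 bases before the start site. The Copg2 window held it 1 time, beginning 116 bases before its start site. A further Mest start lies upstream, with the window chr6:30733256-30733555, and held it 0 times. Among all 32851 windows of the same length in the table, 11.6% held the hexamer and 1.53% held it at least 2 times. The main Mest window had 17 CpG dinucleotides, a number reached by 31.4% of all windows, against 8 in the upstream window and 25 in the Copg2 window. A match of letters is not a measured binding site, and methylation was not among the values analysed here.

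In the deposited tables (build mm9), Mest lies on chromosome 6 from 30673547 to 30698457 on the plus strand. Copg2 lies from 30697554 to 30846794 on the minus strand, so that the ends of the 2 genes overlap tail to tail by 904 bases. Klf14 lies from 30906021 to 30908990 on the minus strand, 59226 bases beyond Copg2. In the GENCODE M21 models of GRCm38, Mest had 11 transcripts with up to 13 exons, Copg2 had 8 with up to 24, and Klf14 had 1 transcript of 1 exon. In the same models 912 exonic bases were shared by Mest and Copg2 on opposite strands, 23.1% of the exonic bases of Mest and 17.8% of those of Copg2. The library kit keeps strand, but the strand setting of the counting is not given in the sources used here, so reads from the shared end could not be assigned to either gene with certainty.

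Values are given as RPM, reads per 1000000 of the total by which the authors scaled each library. Because RPM is not corrected for gene length, each gene is compared across libraries and not with another gene's level. Where 2 values of a line are joined by "against", the wild type comes first and the knockout second. The scaling totals ranged from 50478922 to 96996280 reads, and 53.1% to 68.9% of them fell in listed genes. The knocked-out gene itself was lower in both knockout libraries, at 135 against 51.8 RPM in E14 and 796 against 42.9 RPM in JB1. All 10 stem cell markers were detected in every library, with Pou5f1, a core pluripotency factor, between 442 and 940 RPM. Markers of cell types known to express Mest were low. The summed level of 11 mesoderm genes was 5.70 to 10.4 RPM and that of 10 fibroblast or feeder genes was 8.95 to 38.6 RPM, with decorin (Dcn) at 0 reads in all 4 libraries.

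Mest, the paternally expressed gene, was higher in the knockout library of both lines, by a small margin in E14 and by about 1 log2 unit in JB1. The E14 libraries held 72.8 RPM as wild type and 79.5 RPM as knockout. The JB1 libraries held 43.8 RPM as wild type and 92.5 RPM as knockout. JB1 wild type was the low library, and the other 3 lay closer together. The ratio of knockout to wild type was 2.11 in JB1 (95% counting interval 2.03 to 2.20) and 1.09 in E14 (1.05 to 1.14). These intervals are exact binomial intervals on the reads (3033 and 8972 in JB1, 3674 and 5621 in E14). They cover counting error only, since there was no replicate library to measure the spread between cultures.

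**Figure D1:**
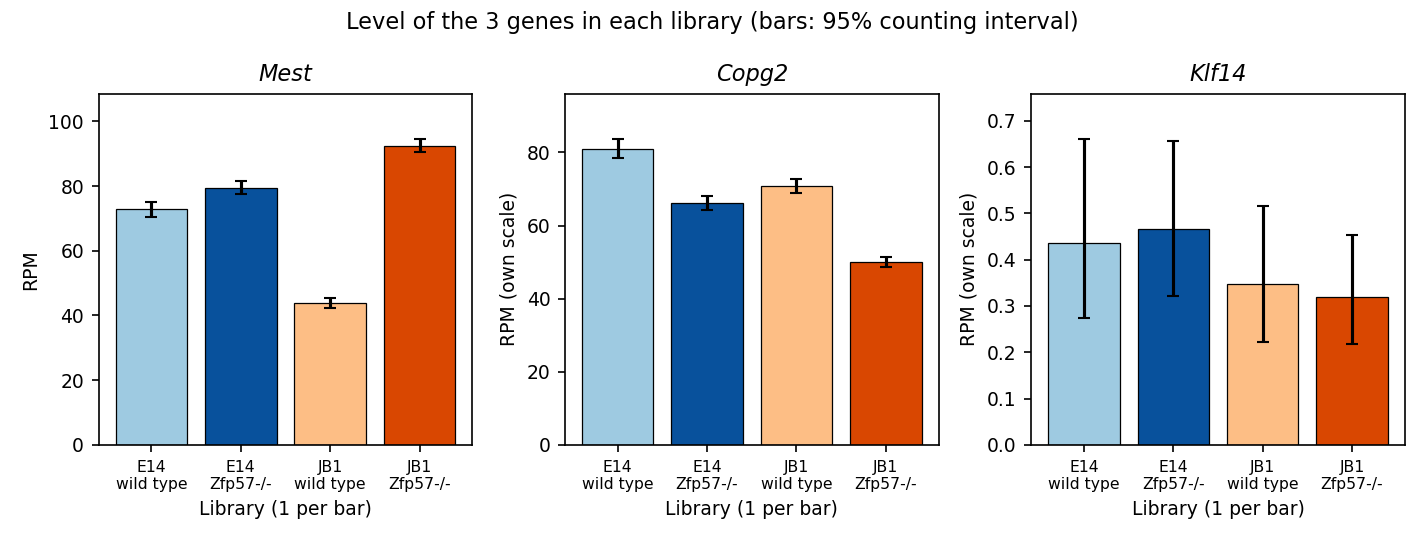
Level of Mest, Copg2 and Klf14 in RPM (vertical axis, starting at 0, with its own scale for each gene) in the 4 libraries; bars are single libraries and error bars are exact 95% Poisson intervals for counting error only. Mest is higher in the knockout bar of each line (72.8 against 79.5 RPM in E14, 43.8 against 92.5 RPM in JB1), Copg2 is lower, and the Klf14 intervals overlap throughout.

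On the log2(RPM + 1) scale the Mest difference was 1.06 in JB1 and 0.13 in E14. Only the JB1 value reached 2-fold, which here and below is counted on this scale unless the plain ratio of RPM is named. Among the measured genes of a line, those that reached 1 RPM in the wild type or the knockout, 2.5% (328 of 13132) were at least 2-fold higher in the JB1 knockout and 0.953% (117 of 12276) in the E14 knockout. Mest stood at place 267 of 13132 from the top in JB1 and at place 4094 of 12276 in E14. Counting intervals that lay above 1 were common, at 40.4% of genes in JB1 and 32.6% in E14, and the E14 interval of Mest is to be read against these shares. With 1 library per group, whether the JB1 and E14 differences differ from each other was not tested.

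Copg2, the overlapping gene on the other strand, was lower in the knockout library of both lines. It stood at 81.1 RPM in the E14 wild type and at 66.3 RPM in the knockout. In the JB1 line the wild type held 70.8 RPM and the knockout 49.9 RPM. The JB1 knockout was the lowest of the 4 libraries and E14 wild type the highest. Copg2 was 1.42-fold lower in JB1 (95% counting interval 1.36 to 1.48) and 1.22-fold lower in E14 (1.17 to 1.28). The log2(RPM + 1) differences were -0.50 and -0.29, neither at 2-fold, a size that 1.58% of genes reached on the lower side in JB1 and 0.269% in E14. Counting intervals below 1 were found for 37.8% of genes in JB1 and 25.8% in E14.

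Klf14 was near the limit of detection. In E14 it had 22 reads (0.436 RPM) as wild type and 33 reads (0.467 RPM) as knockout. In JB1 it had 24 reads (0.347 RPM) and 31 reads (0.320 RPM). The 4 levels overlapped in their counting intervals, which together spanned 0.217 to 0.660 RPM. The ratio of knockout to wild type was 1.07 in E14 (95% counting interval 0.606 to 1.93) and 0.922 in JB1 (0.524 to 1.64), so a knockout level up to 1.93-fold higher in E14 or 1.91-fold lower in JB1 lay within counting error. Klf14 stayed below 1 RPM in every library and is therefore counted neither among the measured genes above nor in the test below.

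The balance of Mest to Copg2 within a library does not depend on how libraries are scaled. There were 0.898 Mest reads per Copg2 read in E14 wild type and 1.20 in the E14 knockout, a 1.34-fold shift (95% exact conditional interval 1.26 to 1.42, counting error only). In JB1 the balance was 0.619 in the wild type and 1.85 in the knockout, a 2.99-fold shift (2.83 to 3.17). In each line the balance was tilted further to Mest in the knockout library.

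The order of the libraries across the 2 lines was less secure than the differences within a line. By RPM, Mest was highest in the JB1 knockout (92.5), then the E14 knockout (79.5), E14 wild type (72.8) and JB1 wild type (43.8), with counting intervals that did not overlap. Per 1000000 reads in listed genes, the order became E14 knockout (148), E14 wild type (137), JB1 knockout (134) and JB1 wild type (63.9). JB1 wild type was the lowest under both scales. For Copg2 the RPM order was E14 wild type (81.1), JB1 wild type (70.8), E14 knockout (66.3) and JB1 knockout (49.9), whereas per 1000000 reads in listed genes the E14 knockout (123) lay above JB1 wild type (103).

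Only the pair of lines replicates the genotype. A limma fit of log2(RPM + 1), with terms for the line and the genotype, was made over all genes. The difference shared by both lines was 0.59 for Mest (SE 0.24) and -0.39 for Copg2 (SE 0.15). Each had a Benjamini-Hochberg adjusted p of 0.627 over 12644 genes (range over the alternative settings 0.572 to 0.9999), so neither passed the threshold of 0.05. Each went the same way in 2 of 2 lines, which was not set against the share of all genes that did. For Copg2 the E14 direction was also that of 450 of 546 other measured chromosome 6 genes. At that threshold limma called 0.0% of genes higher and 0.0% lower (0 of 12644 in each direction). Even the knocked-out gene Zfp57 was not called (limma adjusted p 0.623). Since no gene at all was called, a limma count of 0 for a list below does not show that its genes were unchanged. At an unadjusted p under 0.05 limma had 633 genes higher and 372 lower, Mest and Copg2 among them. The fit has 1 residual degree of freedom per gene, moderated by eBayes with 5.28 prior degrees of freedom. Its p-values therefore rest more on the spread borrowed from other genes than on how far the lines disagreed for the gene itself.

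The setting on chromosome 6 bears on the E14 values. Of 546 other measured chromosome 6 genes, 450 had a lower value in the E14 knockout, and their median log2 difference was -0.28, against 0.02 over all measured genes. In JB1 the chromosome 6 median was 0.06 and 334 of 591 genes were higher. The E14 difference of Copg2 (-0.29) was thus at the chromosome median, at place 262 from the bottom of 548, while Mest (0.13) stood at place 65 from the top. In JB1, Copg2 was at place 39 from the bottom of 593 and Mest at place 17 from the top. Relative to the median of chromosome 6 genes that averaged 1 RPM or more, the E14 difference was -0.019 for Copg2 and 0.39 for Mest.

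None of the measured genes around the locus reached 2-fold, on the log2(RPM + 1) scale or by the plain ratio. Within 1 Mb of either end, 34 other genes were analysed, and those that stayed below 1 RPM in a line are not counted for it. Of 12 measured in E14, 11 were lower in the knockout (median -0.29), and of 11 measured in JB1, 9 were lower (median -0.10). limma called 0 of 12 tested in either direction. The nearest expressed gene on the Mest side was Tsga14 (now Cep41), which encodes a centrosomal protein, at 10.2 against 7.70 RPM in E14 and 11.5 against 10.0 RPM in JB1. On the Klf14 side the nearest gene expressed in both lines was Mkln1 (muskelin, a substrate receptor subunit of the CTLH ubiquitin ligase), at 63.7 against 44.7 RPM in E14 and 54.8 against 51.2 RPM in JB1. Both were lower in both knockout libraries, and the differences were larger in E14 (-0.37 and -0.50) than in JB1 (-0.19 and -0.10), a contrast between the lines that was not tested.

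**Figure D2:**
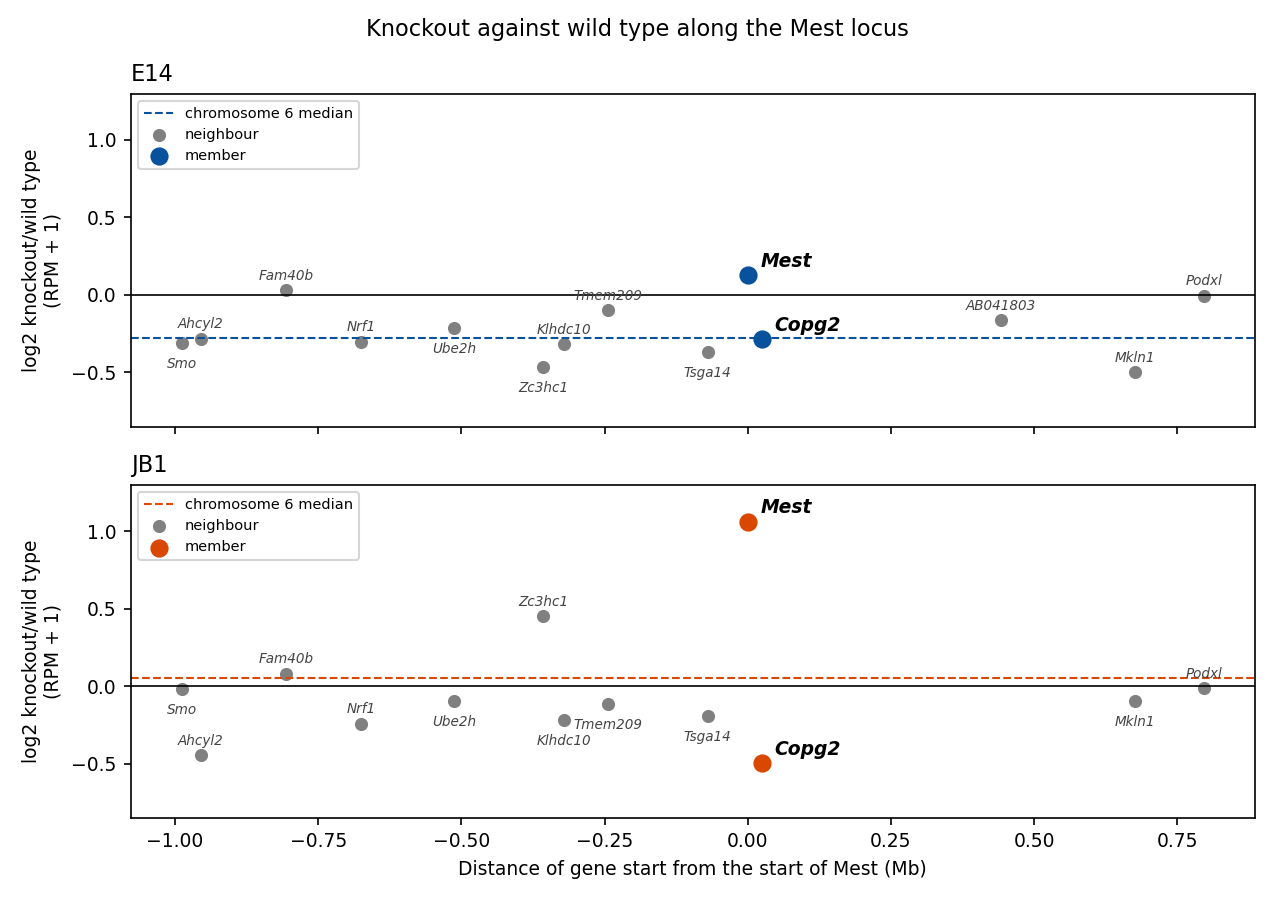
Difference between knockout and wild type, log2 of RPM + 1 (vertical axis), against the distance of each gene's start from the start of Mest in Mb (horizontal axis), for measured genes of each line; coloured points are Mest and Copg2, grey points the other genes analysed within 1 Mb, and the dashed line is the chromosome 6 median. In E14 Copg2 sits on the dashed line (-0.29 against -0.28) and Mest above it at 0.13; in JB1 Mest is the highest point at 1.06 and Copg2 the lowest at -0.50.

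The highest grey point in JB1 was among the low ones in E14. Zc3hc1, a nuclear pore basket gene, was 50.6 against 36.4 RPM in E14 and 37.4 against 51.6 RPM in JB1. It was picked after its values were seen. The carboxypeptidase genes Cpa1 and Cpa5, and Tsga13 between Copg2 and Klf14, had 0 reads in all 4 libraries, which allows at most 0.0594 RPM in the shallowest.

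Mest was compared with other imprinted genes expressed from the paternal copy near a maternally methylated control region. Of 19 such genes in the tables, 15 of 16 measured were higher in the E14 knockout and 12 of 18 in the JB1 knockout, with medians of 0.37 and 0.25 against 0.02 and 0.01 over all measured genes. Over all measured genes, 6571 of 12276 were higher in E14 and 6766 of 13132 in JB1. In JB1, 5 of the 18 were at least 2-fold higher, beside 2.5% of all measured genes. Counting Mest itself, it was the 6th highest of 19 in JB1 and the 16th highest of 17 in E14, and by the plain ratio it was the 7th in JB1 and again the 16th in E14. On the log2(RPM + 1) scale Peg10, a retrotransposon-derived gene of placental growth, led the list in JB1 with 97.3 against 445 RPM. By the plain ratio Nnat (neuronatin) led it, 7.74-fold higher from 0.564 to 4.36 RPM, beside 4.57-fold for Peg10. Snrpn, which encodes a spliceosomal protein, was 119 against 255 RPM in JB1. Plagl1, a zinc finger gene, went opposite ways in the lines, at 3.29 against 10.9 RPM in E14 and 27.8 against 16.0 RPM in JB1. On the log2(RPM + 1) scale the other genes at least 2-fold different in a line were Peg3, Usp29 and Nnat in JB1 and Peg13 in E14. Like Plagl1, Peg13 went opposite ways, at 1.13 against 5.62 RPM in E14 and 11.1 against 7.41 RPM in JB1. The plain ratio added 3 of low level, with Sgce 2.27-fold higher in JB1, and Nnat and Nap1l5 2.95-fold and 2.21-fold higher in E14. limma called 0 of the 17 genes of this list that it tested.

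**Figure D3:**
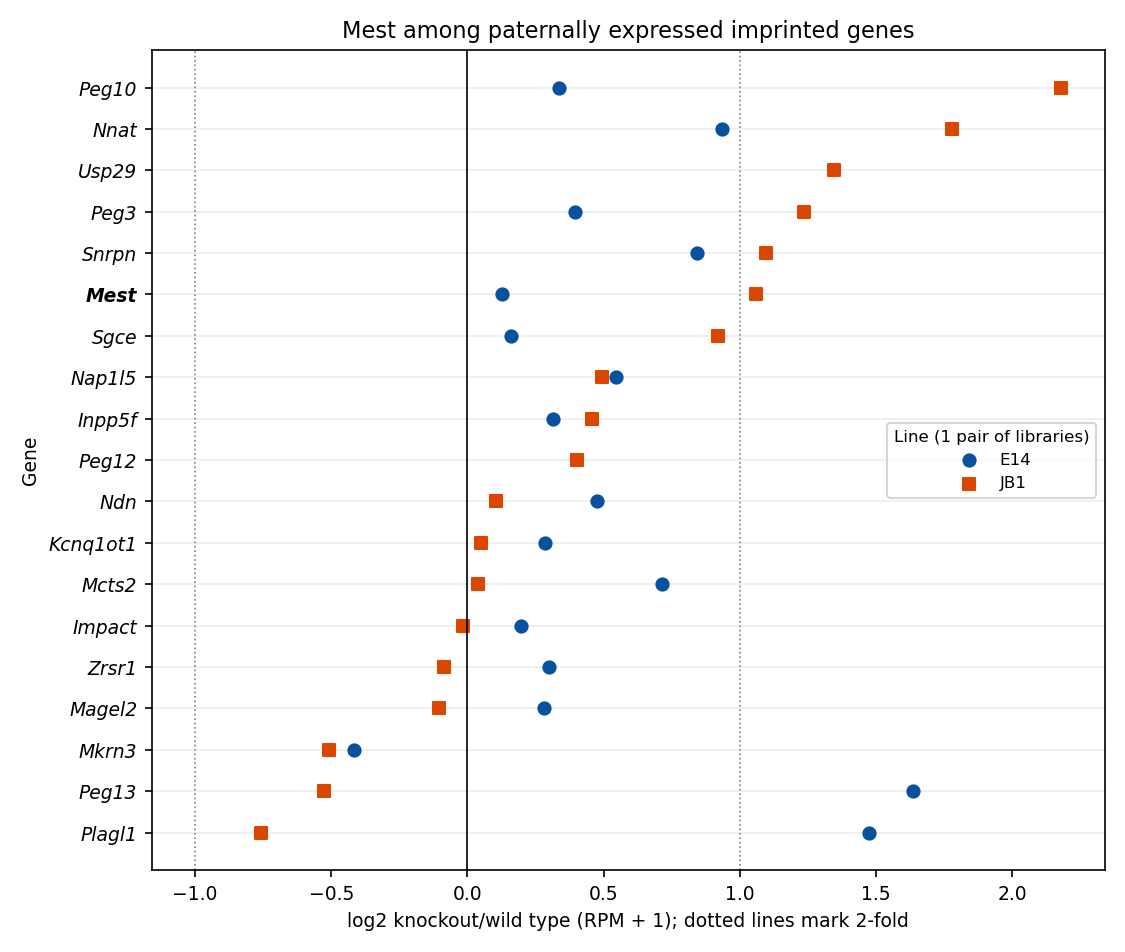
Difference between knockout and wild type, log2 of RPM + 1 (horizontal axis, dotted lines at 2-fold), for Mest (bold) and the other paternally expressed imprinted genes (vertical axis, ordered by the JB1 value); circles are E14 and squares JB1, each from 1 pair of libraries. Mest lies at 1.06 in JB1, just above Sgce, and at 0.13 in E14, where 15 of the 16 other genes measured lie above 0.

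Chromosome 6 carries 3 other genes of that list, Peg10, Sgce and Nap1l5, far from the Mest locus. Like Mest, all 3 were higher without ZFP57 in each line, although most chromosome 6 genes were lower in E14. In E14 the log2 differences were 0.34 for Peg10, 0.16 for Sgce (epsilon-sarcoglycan) and 0.55 for Nap1l5 (a nucleosome assembly protein-like gene), beside 0.13 for Mest. In JB1 they were 2.18, 0.92 and 0.49, beside 1.06 for Mest. Nap1l5 was at most 1.61 RPM, where the scale understates a change.

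Maternally expressed imprinted genes, the class of Copg2 and Klf14, went both ways. For some of them (H19, Meg3, Rian and Mirg) the methylated control region is on the paternal chromosome. Those named genes were all higher in the knockout library of both lines, and they are counted in the totals that follow. Of 21 maternally expressed genes in the tables, 9 of 16 measured were lower in the E14 knockout and 10 of 18 in the JB1 knockout. The medians were -0.04 and -0.02, and limma called 0 of 16 tested. Grb10, a growth factor receptor adaptor, was lower by a wide margin in JB1 (220 against 12.0 RPM). Trappc9 was lower in both lines (22.1 against 17.5 RPM in E14, 20.3 against 10.4 RPM in JB1). Igf2r was higher in E14 (221 against 268 RPM) and lower in JB1 (239 against 120 RPM). The noncoding RNAs H19, Meg3, Rian and Mirg and the gene Asb4 were at least 2-fold higher there (5 of 18, beside 2.5% of all measured genes), as with H19 at 53.5 against 186 RPM. The Copg2 difference of -0.50 in JB1 lay between these.

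Copg2 was also set beside its partners in the COPI coat. Gamma-1 COP (Copg, now Copg1), its paralog and the other gamma subunit, lies on chromosome 6 as well, from 87837808 to 87863589 in mm9. It was 135 against 105 RPM in E14 and 129 against 130.3 RPM in JB1. It was therefore lower in E14 by about the same log2 amount as Copg2 (-0.36 against -0.29), while in JB1 it differed little (0.02 against -0.50). The paralogs can share reads where their sequences are alike, and how such reads were treated is not given in the sources used here. Of the 8 coat subunits measured, Copg2 had the second lowest difference in both lines. In JB1 only Copa, the alpha subunit on chromosome 1, was lower, at 245 against 168 RPM (-0.54). Arcn1, the delta subunit, was 219 against 223 RPM in JB1. Over 12 measured coat and ARF-cycle genes, Copg2 left out, 8 were lower in E14 and 6 in JB1, with medians of -0.04 and -0.02. None of them reached 2-fold, and limma called 0 of 12 tested.

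**Figure D4:**
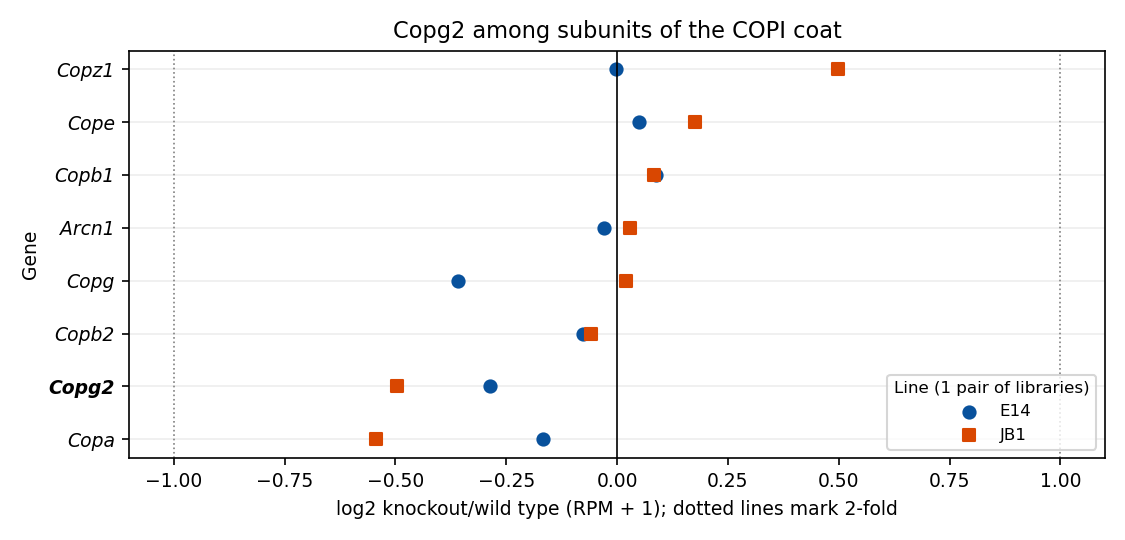
Difference between knockout and wild type, log2 of RPM + 1 (horizontal axis, dotted lines at 2-fold), for the 8 COPI coat subunits measured (vertical axis, ordered by the JB1 value, Copg2 in bold); circles are E14 and squares JB1, each from 1 pair of libraries. Copg2 lies at -0.50 in JB1 and -0.29 in E14, while its paralog Copg lies at 0.02 and -0.36.

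The families of Mest and Klf14 gave a further background. Among 13 alpha/beta-hydrolase genes measured in E14, 8 were higher, and among 14 in JB1, 5 were higher, with medians of 0.04 and -0.09. None was at 2-fold on the log2(RPM + 1) scale. By the plain ratio Abhd4 was 2.04-fold lower in E14 (18.9 against 9.25 RPM), and Ephx1, a microsomal epoxide hydrolase, was 2.09-fold lower in JB1 (10.8 against 5.14 RPM). The most abundant, Abhd2, was 42.3 against 40.4 RPM in JB1. Krüppel-like factors and related SP factors, with Klf14 left out, were mostly lower in the JB1 knockout (15 of 18, median -0.24), and 12 of 17 were lower in E14 (median -0.09). Among all measured genes, 6366 of 13132 were lower in JB1 and 5705 of 12276 in E14. Klf4, a factor of the naive stem cell state, was at least 2-fold lower in JB1 (410 against 164 RPM). limma called 0 of 15 hydrolase genes and 0 of 18 factors.

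Other genes with which ZFP57 works showed no shared direction. Of 9 genes of control region maintenance, Zfp57 left out, 4 were lower in E14 and 5 in JB1, and none reached 2-fold on either scale. Trim28, which encodes KAP1, was 943 against 842 RPM in E14 and 1397 against 1332 RPM in JB1. limma called 0 of the 10 genes of this list, Zfp57 counted.

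Marker lists of 6 kinds, among them fibroblast or feeder and mesoderm genes, were read beside the JB1 difference of Mest. The summed fibroblast and feeder level was 18.99 against 38.6 RPM in JB1, with 4 of 5 measured genes higher. The extracellular matrix gene Fbln1 made up much of that sum, at 8.51 against 17.99 RPM. Pdgfrb, a growth factor receptor, was 1.43 against 5.73 RPM, the surface protein gene Thy1 was 3.61 against 7.95 RPM and collagen Col1a1 was 3.67 against 5.19 RPM. Collagen Col6a1 was the measured gene that was lower, at 1.43 against 1.33 RPM, and the other 5 genes of the list stayed below 1 RPM, with Dcn at 0 reads. The summed mesoderm level was 9.52 against 10.4 RPM, with 2 of 3 measured genes higher and Twist1 lower at 3.40 against 0.814 RPM. The higher ones were Pdgfra (1.49 against 3.22 RPM, 2.16-fold by the plain ratio) and Mesp2 (2.64 against 3.33 RPM). In E14 the sums were 8.95 against 10.2 RPM for fibroblast genes and 5.86 against 5.70 RPM for mesoderm genes. Primitive endoderm genes summed to 81.2 against 111 RPM in JB1, with 6 of 7 measured genes higher, and to 41.2 against 39.9 RPM in E14, with 2 of 5 higher. Most of the JB1 sum was Col4a1 (46.3 against 65.8 RPM) and Dab2 (20.2 against 29.6 RPM). In JB1 Hnf4a was at least 2-fold higher (0.405 against 2.09 RPM), while Gata4 was 2.05-fold lower by the plain ratio (6.10 against 2.97 RPM). Trophoblast genes summed to 57.4 against 89.9 RPM in JB1 and to 26.2 against 26.7 RPM in E14, with 4 of 5 measured genes higher in each line. Most of the JB1 sum was Tcfap2c, at 35.2 against 54.7 RPM. In JB1 Krt8 was at least 2-fold higher (5.79 against 13.96 RPM), and Gata3 was the lower one (4.23 against 3.17 RPM). In E14 Gata3 was 2.83-fold higher by the plain ratio (0.574 against 1.63 RPM). Neuroectoderm genes summed to 28.5 against 30.7 RPM in JB1, led by Tubb3 at 17.3 against 20.3 RPM, with 2 of 4 measured genes higher. In E14 they summed to 55.4 against 66.7 RPM, with only 2 of 5 measured genes higher. Most of the E14 sum was Tubb3 (33.1 against 45.9 RPM), while Pax6 (3.37 against 1.99 RPM) and Mtap2 (3.09 against 2.28 RPM) were lower. Stem cell markers summed to 3967 against 3434 RPM in E14, with 9 of 10 lower in the knockout. In JB1 they summed to 5634 against 5108 RPM, with 6 of 10 lower, and there Utf1 was at least 2-fold higher and Fgf4 at least 2-fold lower. Nanog was lower in both lines, at 228 against 137 RPM in E14 and 693 against 362 RPM in JB1. For comparison, 6571 of 12276 measured genes of any kind were higher in E14 and 6766 of 13132 in JB1. limma called none of the genes tested in these 6 lists. The part of these cell types in the Mest difference was not tested, and in bulk RNA a change in the number of cells of a type cannot be told apart from a change in RNA per cell.

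The genes whose pattern was most like that of Mest were found by the Euclidean distance between log2(RPM + 1) values over the 4 libraries, each gene centred on its own mean, among 9625 genes that averaged 5 RPM or more. The closest 5 were Actg1 (gamma-actin), Utp14b, Camk1d (a calmodulin-dependent kinase), Hmha1 and Upp1 (uridine phosphorylase), at distances of 0.09 to 0.15 log2 units. Actg1, the closest, was 564, 635, 371 and 752 RPM in E14 wild type, E14 knockout, JB1 wild type and JB1 knockout. None of these 5 lies on chromosome 6. For Copg2 the closest were Mau2 (a cohesin loading factor), Mtm1 (myotubularin, a lipid phosphatase), Ttbk2 (a tau tubulin kinase), Rapgef6 and Ankle2, at distances of 0.05 to 0.06. Mau2 was 59.1, 49.3, 50.6 and 35.6 RPM in the same order, and none of these 5 lies on chromosome 6 either. The search is a description over 4 libraries, and it uses levels set across tables that were scaled separately.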

How the data were processed

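Groups were taken from the sample titles, with 1 library for each of 2 lines and 2 genotypes. The submitters' processing notes name CASAVA 1.8.2, TopHat2 2.0.8b, cutadapt and the build mm9. The sources used here do not give the annotation, the counter or its strand setting. The deposited values are log2 of RPM, as read from the values: 0.9 × 2^(value − lowest value) was whole for 100% of genes with reads (relative tolerance 0.0001), so genes with 0 reads carry the value of 0.9 read. Reads and RPM were recovered from this. At 1 RPM a gene had 50.5 to 97.0 reads.

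Differences within a line are log2((knockout RPM + 1)/(wild-type RPM + 1)), with no test, and this scale understates changes of low genes. Measured genes had at least 1 RPM in either library of the line. Ratios carry exact conditional binomial intervals, and levels exact Poisson intervals, both for counting error only since reads are not independent molecules. A count of 0 allows 3 reads. The shared effect was fitted on log2(RPM + 1) with limma (version 3.58.1, under R 4.3.3) for genes averaging 1 RPM or more, eBayes with a trend, after the fit was tested on simulated data. A count model was planned only for deposited counts. The deposited values are log2 values, so none was run, although whole reads were recovered. Alternatives covered the pseudocount, the filter, the scaling, centring, the trend and the cell line term.

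The members and lists were chosen with earlier results of these data known. Named genes were the members, genes within 1 Mb (the nearest expressed on each side, and those at 2-fold), the 5 most alike in pattern, and from each list those at 2-fold in a line or otherwise the 2 most abundant. Others were named after their values were seen. A gene near the locus is not reported here. RefSeq and GENCODE coordinates (GRCm38) were kept apart from those of the tables.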

Additional observations from a re-analysis of the deposited data

Results flagged for a closer look

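Klf14 differed in opposite directions in the lines, by 0.031 on the log2(RPM + 1) scale in E14 and by -0.029 in JB1. This was not tested, with 1 library per group, and each ratio's counting interval includes 1.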

How the results depend on the processing

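The limma fit is paired by line, since its line term sets each knockout beside the wild type of its own line. With 1 library per group no replicate could be left out. Of 62 alternative values, 59 kept their direction and their side of the threshold or moved by less than counting error. The limma values among them say little about stability, since no gene passed the threshold under any setting. Over the settings the unadjusted limma p ranged from 0.0098 to 0.255 for Mest (main fit 0.045). For Copg2 it ranged from 0.036 to 0.266 (main fit 0.042). Relative to the median of chromosome 6, the E14 difference of Mest moved from 0.13 to 0.39 and that of Copg2 from -0.29 to -0.019. With a pseudocount of 5 RPM the JB1 difference of Mest was 0.998, just under 2-fold on the log2 scale. limma called 0 genes under each of its 8 alternative settings. The unadjusted counts were lowest without the cell line term, at 12 genes higher and 4 lower. With no filter on low values Klf14 entered the limma fit, with a shared difference of 0.00069 (SE 0.026). Depth limits Klf14, which had 22 to 33 reads per library.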
